A study of Saccharomyces cerevisiae with 21 samples.

Results

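The genes described here encode 6 budding yeast enzymes and enzyme partners that remove superoxide, hydrogen peroxide and nitric oxide: CTT1 (YGR088W), CCP1 (YKR066C), SOD1 (YJR104C), SOD2 (YHR008C), CCS1 (YMR038C) and YHB1 (YGR234W). They were chosen by gene symbol. They account for 9 of the 9275 probe sets tested on the array and for 6 of the 5656 genes that had a probe set of their own. YHB1 had 4 probe sets and each of the others 1. Each array gave 1 deposited signal per probe set, a linear brightness. All cells were the diploid Saccharomyces cerevisiae strain BY4743, of S288C background, which lacks HIS3, LEU2 and URA3 on both chromosomes and has lost 1 copy each of LYS2 and MET15. Every group, the control included, came from cells grown in rich medium (YPD) at 30 °C to an absorbance of 0.8, spun down and moved to YPD diluted 20-fold at 22 to 25 °C. The control was sampled directly after that move. The half-dried group had been left in open dishes of 15 ml for 18 h and was 50% dry. The dry group had dried for 42 h and had then been kept for 72 h at 20% relative humidity. The other 4 groups were dry cells returned to diluted YPD for 15, 45, 90 or 360 min, with 4 dishes pooled. Each of the 7 groups had 3 arrays, 21 in all. The labels do not say whether the 3 came from separate cultures, so the p-values measure only the spread between these samples.

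Superoxide is turned into hydrogen peroxide by superoxide dismutases. Yeast has a copper and zinc enzyme, Sod1, mainly in the cytosol, which receives its copper from the chaperone Ccs1, and a manganese enzyme, Sod2, in the mitochondrial matrix. Hydrogen peroxide is then broken down by catalases, of which Ctt1 is the cytosolic one, or reduced by peroxidases such as Ccp1, which takes electrons from cytochrome c in the mitochondrial intermembrane space. Yhb1 is a flavohemoglobin that oxidizes nitric oxide to nitrate. CTT1 is a widely used reporter of the general stress response driven by Msn2 and Msn4, and drying and rehydration are both known to expose yeast to oxidants.

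Signals had been scaled by the authors, since the trimmed mean of every array lay between 500.2 and 500.5. The medians of the arrays nevertheless ran from 141.2 to 207.3, with the 3 arrays of 360 min lowest at 141.2 to 145.6 and the dry arrays at 201.2 to 206.4. Arrays were therefore quantile normalized, and a log2 difference below is a difference in log2(normalized signal + 17.74), where the added value is 10% of the median signal. A gene was called where limma's Benjamini-Hochberg adjusted p over all tested probe sets was under 0.05 and the change was at least 2-fold, and "rose" and "fell" are used of called genes. Arrays of 1 group correlated at 0.984 to 0.992 across genes, and at 0.967 to 0.977 at 360 min. Arrays with close hybridization times in the array records were taken as 1 hybridization run. The control, 90 min and 360 min arrays each filled a run of their own, so for these groups the run and the group cannot be told apart. The control was scanned on scan day 1, the 90 and 360 min arrays on day 3 and all others on day 2. Every comparison with the control thus also crossed scan days, as did those of 90 or 360 min with dry cells. The 3′ minus 5′ log2 signal of the ACT1 control probe sets went from -0.57 in the control to 0.94 in dry cells. At 360 min it was 2.71. In the same order, SRB4 gave 1, 1.61 and 2.36, and SPT15 gave 1.48, 1.05 and 2.74. The part of this signal in the results was not tested. URA3, deleted in the strain, read 0.5 to 5.8 on all arrays, LEU2 2 to 107.5, and HIS3, whose allele in this background removes only part of the gene, 36.6 to 874.5. A level is RNA of the whole population, so fewer cells with the RNA and less RNA per cell cannot be told apart.

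YHB1, the nitric oxide dioxygenase gene, moved furthest of the 6. On its brightest probe set the deposited signals of the 3 control arrays were 3808.4, 4030.1 and 3848.1. The half-dried arrays read 109.3, 135.4 and 82, and the dry arrays 124.7, 134.6 and 128.8. YHB1 thus fell by 5.37 ± 0.19 (log2, SE, n = 3 arrays a group) from the control to half-dried cells, 41.2-fold, with an adjusted p of 1.41e-14 in limma. The dried signals lay around the top of the range of the deleted LEU2, so the size depends on the added value, from -5.59 with 1% of the median added to -4.67 with 50%. Between the half-dried and the dry state the log2 difference was 0.23 ± 0.19 (adjusted p = 0.374), and the arrays of the groups overlapped.

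YHB1 had not returned to its control level after 360 min of rehydration. The signals were 87.4, 93.3 and 120.2 after 15 min, 81.3, 76.5 and 100.4 after 45 min, 103.8, 149.9 and 103.8 after 90 min, and 260.3, 146.2 and 178.7 after 360 min. All 3 arrays of 360 min were above all 3 dry arrays, yet far below the control. The log2 difference between 360 min and the dry state was 0.97 ± 0.19 (adjusted p = 0.000192), just under the 2-fold minimum, and 0.50 (adjusted p = 0.0257) on the deposited scale. Without the second 360 min array it was 1.17 (adjusted p = 4.07e-05) and without the third 1.01, both of them called. Against the control, YHB1 at 360 min fell by 4.16 ± 0.19, 17.9-fold (adjusted p = 4.35e-13).

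The other probe sets of YHB1 gave the same drop with drying but differed on the late rise. The second brightest read 3339.5, 3395.5 and 3236.8 in the control, 115.2, 114 and 133.6 in half-dried cells, and 117, 117 and 137 at 360 min. There YHB1 fell by 4.88 ± 0.16 with drying (adjusted p = 4.47e-15), while 360 min against dry gave 0.35 ± 0.16 (adjusted p = 0.0649). The third read 1166.6, 1238.8 and 1266.4 in the control and 43, 27.1 and 11.6 in half-dried cells. Its dry arrays read 19.7, 8.7 and 27.8 and its 360 min arrays 59.8, 49.8 and 66.2, a called rise of 1.24 ± 0.31 (adjusted p = 0.00234) at signals within the range of the deleted LEU2. On that probe set the rise over the dry state was also called at 90 min, at 1.04 ± 0.31 (adjusted p = 0.0178). The fourth was dark on every array, at 1 to 32.2, and did not pass the F test over the 7 groups (adjusted p = 0.522). The fall with drying was thus seen on 3 of 4 probe sets, and the partial return was called on 1 of 4.

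**Figure D1:**
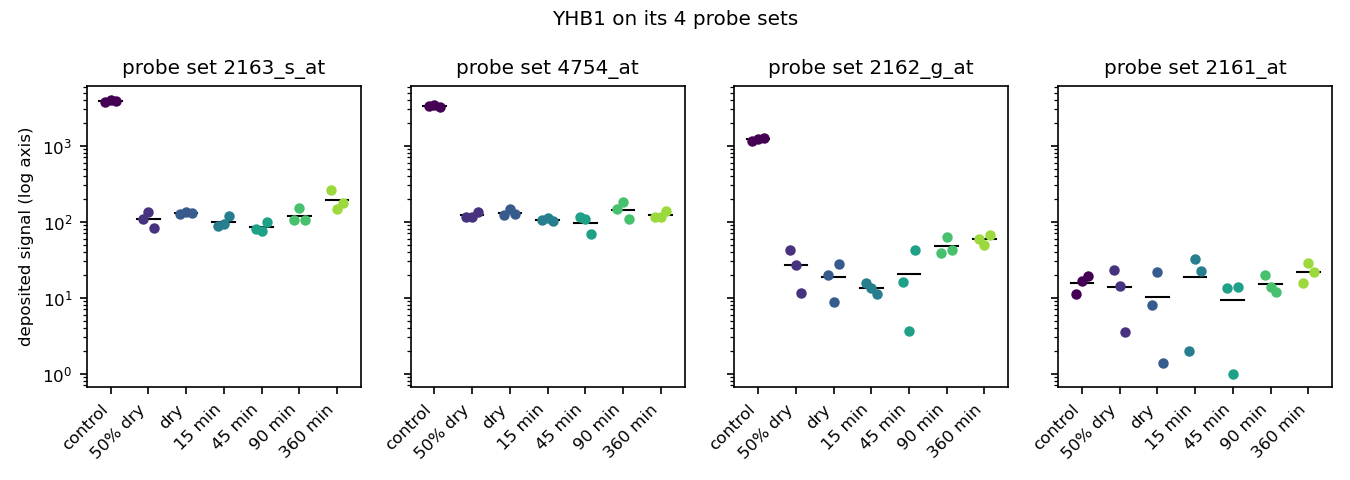
Deposited signal of YHB1 on its 4 probe sets (log axis) for the 3 arrays of each group, with points for arrays and a line for the group mean. On 3 probe sets the control arrays, at 1166.6 to 4030.1, stand far above all others, and the fourth probe set is dark throughout.

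CCP1, the gene of the cytochrome c peroxidase of mitochondria, rose as the cells dried and came down again late in rehydration. The control arrays read 1044.7, 979.7 and 961.1, the half-dried arrays 1470.7, 1740.5 and 1872.2, and the dry arrays 2080.6, 2095.7 and 2221.3. No array of a drier group was below one of a wetter group in this order. At the half-dried stage the log2 difference from the control was 0.84 ± 0.12 (adjusted p = 7.43e-06), below the 2-fold minimum, and the dry cells rose by 1.25 ± 0.12, 2.38-fold (adjusted p = 3.09e-08). The latter call was lost, at 0.86, with median-centred arrays.

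The high level of CCP1 lasted through the first 45 min of rehydration. Signals were 2352, 2059.6 and 2327 at 15 min and 2075.4, 2066.2 and 2418.5 at 45 min, overlapping those of dry cells. They were lower at 90 min, at 1574.9, 1610.4 and 1842.9, and lower still at 360 min, at 984, 668.4 and 735.7. The 90 min log2 difference from dry cells was -0.43 ± 0.12 (adjusted p = 0.0121), or -0.11 (adjusted p = 0.528) with median-centred arrays. From 90 to 360 min the log2 difference was -0.84 ± 0.12 (adjusted p = 3.03e-05), and without the first 360 min array it was -1.002 and called. From the dry state to 360 min CCP1 fell by 1.27 ± 0.12, 2.42-fold (adjusted p = 5.42e-08). Its level at 360 min differed from the control by -0.02, with a 95% confidence interval from -0.279 to 0.233 (adjusted p = 0.876), and by -0.33 (adjusted p = 0.0202) on the deposited scale.

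CTT1, the cytosolic catalase gene, was highest in half-dried cells and stayed within 2-fold of the control in every group. The control arrays read 1132.1, 1151 and 964.2, the half-dried arrays 1386.8, 1791.6 and 1422.9, and the dry arrays 1368.6, 1157.1 and 1280.6. The half-dried arrays were all above the control arrays, with a log2 difference of 0.58 ± 0.12 (adjusted p = 0.00044). Dry cells differed from the control by 0.28 ± 0.12 (adjusted p = 0.0508), or by -0.002 (adjusted p = 0.991) with median-centred arrays.

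During rehydration CTT1 varied around its control level. Signals were 1038.8, 976.5 and 1053.9 at 15 min, 1029.1, 1184.2 and 1472.1 at 45 min, and 947.2, 1108.5 and 1101.2 at 90 min. At 360 min they were 836.4, 715.6 and 837.2, all lower than in dry cells, with a log2 difference of -0.40 ± 0.12 (adjusted p = 0.00834). Against the control the 360 min difference was -0.12 (adjusted p = 0.387). On the deposited scale these were -0.66 (adjusted p = 0.000144) and -0.43 (adjusted p = 0.00463). With median-centred arrays they were -0.19 (adjusted p = 0.176) and -0.20 (adjusted p = 0.162). CTT1 therefore passed no 2-fold call in any of the 10 comparisons, although its F test over the 7 groups gave an adjusted p of 0.000522.

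CCS1, whose product delivers copper to Sod1, went down with drying. The control arrays read 1131.6, 1150.8 and 1127, the half-dried arrays 722.5, 720 and 666, and the dry arrays 534.8, 517.8 and 541.5, with no overlap between successive groups. The half-dried log2 difference was -0.65 ± 0.08 (adjusted p = 5e-07), and in dry cells CCS1 fell by 1.12 ± 0.08, 2.17-fold (adjusted p = 1.64e-10).

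The low level of CCS1 was kept during rehydration. The arrays of 15, 45 and 90 min together read 523.1 to 623.7, and those of 360 min 484.9, 459.5 and 425.6. The 360 min level differed from the control by -0.89 ± 0.08 (adjusted p = 4.29e-09), 1.85-fold and so not called. Against dry cells the 360 min difference was 0.23 ± 0.08 (adjusted p = 0.0143) after quantile normalization but -0.21 (adjusted p = 0.0204) on the deposited scale, so its direction depended on the scaling.

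SOD1, the gene of the enzyme that this chaperone serves, was at its control level in dry cells. Its deposited signals were 2459.3, 2886.1 and 3022.3 in the control, 4211.3, 3597.7 and 2991.3 in half-dried cells, and 2310.4, 2791.6 and 2602.9 in dry cells. The half-dried arrays averaged highest of these, with a log2 difference of 0.47 ± 0.13 from the control (adjusted p = 0.00318), or 0.16 (adjusted p = 0.407) with median-centred arrays. Dry cells lay at the control level, with a difference of 0.00 and a 95% confidence interval from -0.259 to 0.267 (adjusted p = 0.982), or -0.35 (adjusted p = 0.0708) with median-centred arrays.

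During rehydration the deposited signals of SOD1 were 2898.6, 4279.9 and 3590.5 at 15 min, 3421.2, 3086.3 and 2960.5 at 45 min, and 4012.3, 3908.8 and 4002.6 at 90 min. At 360 min they were 5657.9, 5072.1 and 5931.4, the highest of the course on the deposited scale. How large that gain was depended on how the arrays were scaled. After quantile normalization 360 min differed from dry by 0.47 ± 0.13 (adjusted p = 0.00336), on the deposited scale SOD1 rose by 1.11 (adjusted p = 1.2e-06), and with arrays centred on their medians it rose by 1.58 (adjusted p = 8.56e-08). The step from 90 to 360 min was -0.01 (adjusted p = 0.962), 0.48 (adjusted p = 0.00871) and 0.70 (adjusted p = 0.0017) in the same order, so its sign also turned. All 3 arrays of 360 min were above all 3 dry arrays under quantile normalization, and no scaling put SOD1 below its dry level at 360 min.

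SOD2, the mitochondrial dismutase gene, was highest in half-dried cells and lower from 45 min of rehydration on. The control arrays read 1520.5, 1570.5 and 1612, the half-dried arrays 2311.6, 2508 and 2602.1, and the dry arrays 2120.1, 2245.4 and 1995.5. The half-dried log2 difference of 0.85 ± 0.10 (adjusted p = 6.89e-07) came closest to a call at this stage among the genes that were higher, together with CCP1. Dry cells differed from the control by 0.63 ± 0.10 (adjusted p = 2.26e-05), which became 0.20 (adjusted p = 0.117) when arrays were centred on their medians.

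After rehydration the signals of SOD2 were 1803.7, 2107.8 and 1968 at 15 min, 1782.3, 1726.3 and 1331 at 45 min, 1690.2, 1608.1 and 1659 at 90 min, and 1520.3, 1478.3 and 1315.3 at 360 min. The 90 min and 360 min arrays were all below the dry arrays, with log2 differences of -0.44 ± 0.10 (adjusted p = 0.0029) and -0.49 ± 0.10 (adjusted p = 0.000407). Centred on the array medians, these were -0.11 (adjusted p = 0.456) and -0.09 (adjusted p = 0.485). At 360 min SOD2 differed from the control by 0.14, with a 95% confidence interval from -0.077 to 0.349 (adjusted p = 0.241).

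**Figure D2:**
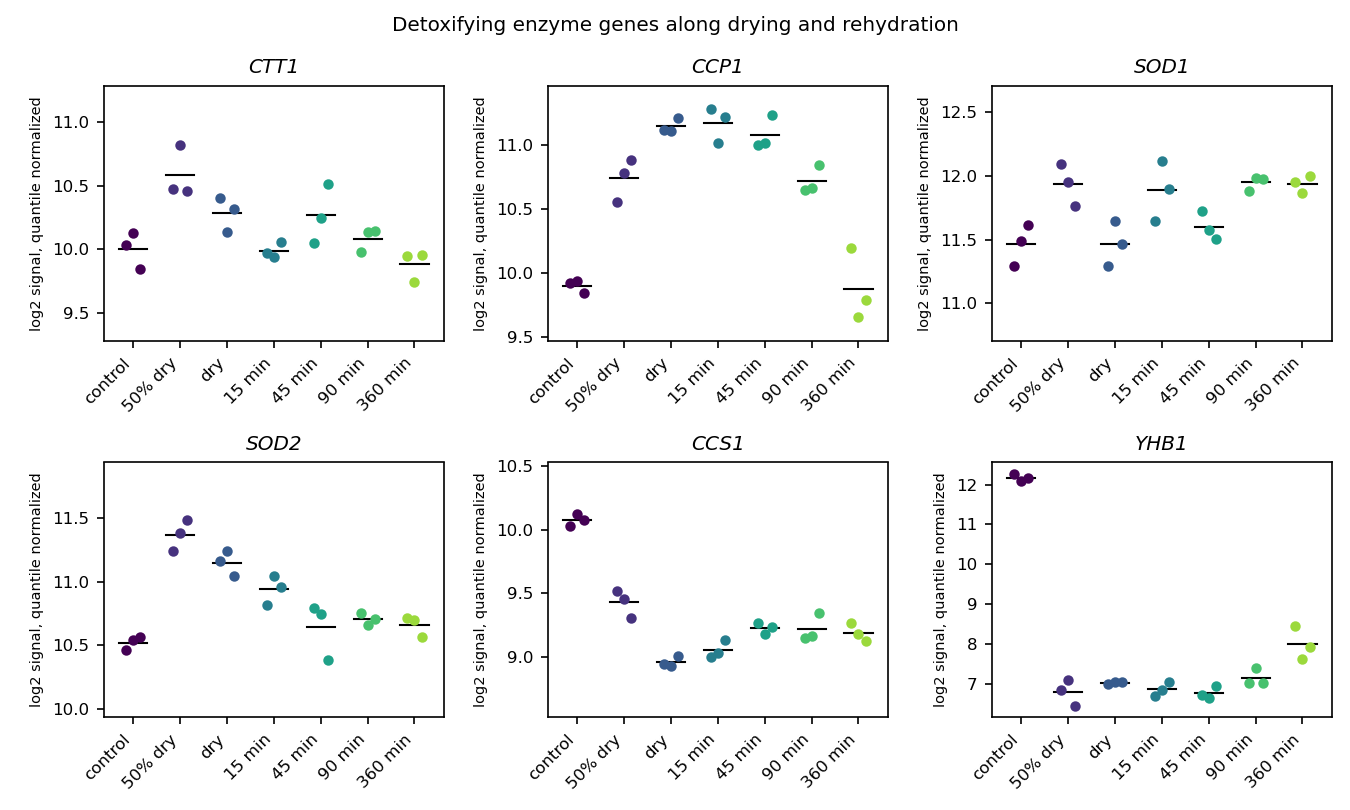
Log2 quantile-normalized signal of the 6 genes on each of the 21 arrays, 3 per group, with a line for the group mean. YHB1 spans 5.39 between its highest and lowest group means, CCP1 1.30 with a plateau from the dry state to 45 min, CCS1 1.12, and SOD2, CTT1 and SOD1 0.85, 0.70 and 0.48.

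The order of the group levels after normalization differed from gene to gene. For CTT1 it was half-dried, dry, 45 min, 90 min, control, 15 min and 360 min, and only the first pair did not overlap. For SOD1 the 90 min and 360 min groups came first and the dry and control groups last, with every pair of neighbours overlapping. SOD2 ran from half-dried through dry and 15 min to 90 min without overlap, after which 360 min, 45 min and the control overlapped. CCS1 had the control on top, then the half-dried group, then the others, with 45 min first among them and the dry group last. CCP1 had 15 min, dry and 45 min on top and overlapping, half-dried and 90 min below them, and the control and 360 min at the bottom. YHB1 had the control, 360 min and 90 min apart from each other, and the remaining groups overlapped.

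Counted over the 6 genes, the F test over the 7 groups was passed by 6 of 6, where 82.5% of all tested probe sets passed it. From the control to half-dried cells 1 gene, YHB1, was called lower and 0 higher, where 27.0% of all probe sets were called either way and 13.9% lower. All 6 passed the adjusted p alone, as did 57.4% of all probe sets, with a median log2 difference of 0.53 against -0.02. With median-centred arrays SOD1 did not pass it (0.16, adjusted p = 0.407), and CTT1 was at an adjusted p of 0.0485. From the control to dry cells CCP1 was called higher and CCS1 and YHB1 lower, 3 of 6 against 35.1% of all probe sets, of which 17.5% were higher and 17.6% lower. From half-dried to dry cells 0 of 6 were called by limma, where 8.14% of all probe sets were called. An unadjusted p under 0.05 was reached by 5 of the 6 genes, and the share of all probe sets at that threshold is not given.

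**Figure D3:**
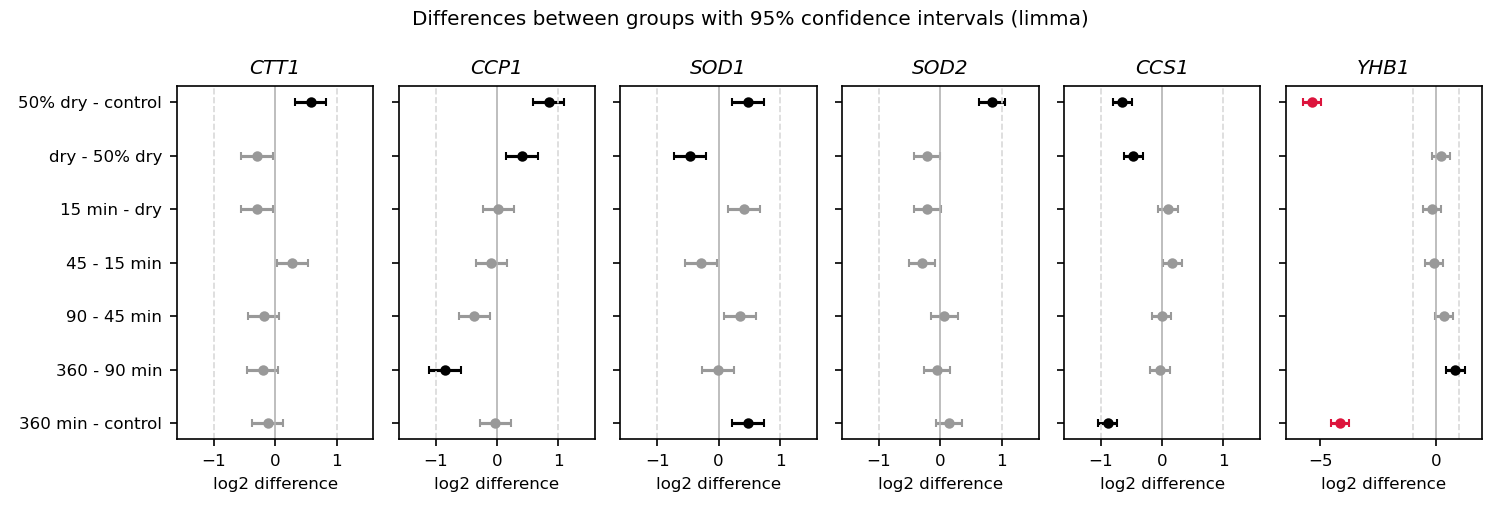
Log2 difference with its 95% confidence interval from limma for the 6 genes and 7 comparisons, each read by its brightest probe set; red marks called differences, black an adjusted p under 0.05 alone and grey neither. YHB1 has its own axis range, reaching -5.37, while the differences of the other 5 genes stay between -0.89 and 0.85 in these comparisons.

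Short steps of rehydration called almost nothing on the array and none of these genes. The percentages for these steps are of called probe sets. The share of all probe sets at an unadjusted p under 0.05 is not given. From dry to 15 min 0 of 6 were called by limma (2 at an unadjusted p under 0.05), where 0.119% of all probe sets were called. From 15 to 45 min it was 0 of 6 (4 at an unadjusted p under 0.05) against 0.0755%, and from 45 to 90 min 0 of 6 (2 at an unadjusted p under 0.05) against 0.173%. From dry to 90 min it was 0 of 6 by limma against 4.68%, though SOD1, SOD2, CCS1 and CCP1 had an adjusted p under 0.05, as did 29.2% of all probe sets. From 90 to 360 min it was again 0 of 6 against 6.91%, with CCP1 and YHB1 at an adjusted p under 0.05, as were 40.4% of all probe sets. From dry to 360 min CCP1 alone was called, lower, where 23.3% of all probe sets were called and 11.8% lower. On the deposited scale SOD1 was called higher beside it, and with median-centred arrays SOD1 higher was the only call. From the control to 360 min YHB1 alone was called, lower, where 41.2% of all probe sets were called and 21.5% lower. The deposited scale added CCS1 lower, and centring added CCS1 lower and SOD1 higher. Several of these comparisons share the control or the dry arrays.

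In 3 hybridization runs that held arrays of neighbouring groups, the values for some genes were close to those over all arrays and for others were not. In the run with 3 half-dried arrays and 1 dry array, the dry minus half-dried differences were -0.65 for SOD1, -0.48 for CCS1 and 0.38 for CCP1, next to -0.47, -0.47 and 0.41 over all arrays. In the run with 2 dry and 2 of the 15 min arrays, SOD1 differed by 0.33 and CTT1 by -0.27, next to 0.42 and -0.30. In the run with 1 of the 15 min arrays and the 45 min arrays, SOD2 differed by -0.32 and SOD1 by -0.30, next to -0.30 and -0.29. YHB1 differed by -0.28 in each of the last 2 runs, next to -0.16 and -0.09 over all arrays, and CTT1 by -0.18 from half-dried to dry, next to -0.30. CCP1 from dry to 15 min was -0.02 within its run and 0.02 over all arrays. Runs with a lone array of a group give values with no test.

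Scaling moved SOD1 furthest at 360 min, as given above, and changed calls of CCP1 and CCS1. The median of all probe sets for 360 min minus dry was -0.001 after quantile normalization. It was -0.2 on the deposited scale and 0.267 when arrays were centred on their medians. CCP1 in dry cells against the control was 1.09 and called on the deposited scale, and 0.86 (adjusted p = 2.64e-06) and not called when centred. Its drop from dry to 360 min was -1.42 and called on the deposited scale, and -0.95 and not called when centred. CCS1 at 360 min against the control fell by 1.29 on the deposited scale and by 1.05 when centred, both called, where the quantile value of -0.89 was not. The fall of YHB1 from the control to half-dried cells was called under all 3 scalings, at -5.37, -4.97 and -5.17.

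**Figure D4:**
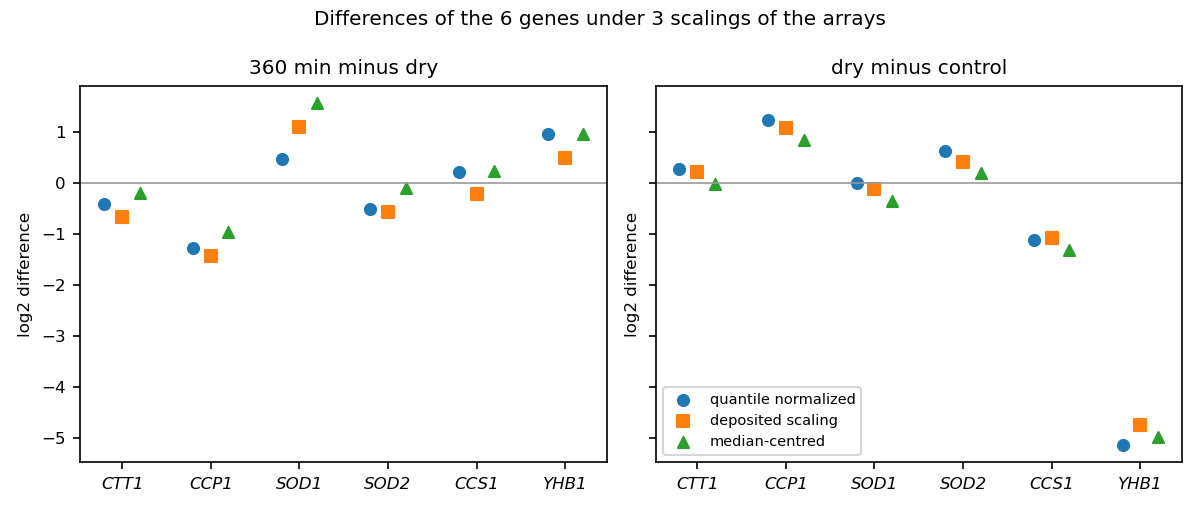
Log2 differences of the 6 genes under 3 scalings of the arrays (quantile, deposited, median-centred), in the comparisons named above each panel. For SOD1 the 360 min minus dry difference runs from 0.47 to 1.58 while YHB1 stays far below 0 against the control under all 3.

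Among the other genes of peroxide removal, several moved further than CTT1. Of 9 measured, 3 were called higher and 2 lower in half-dried cells, 5 of 9 against 27.0% of all probe sets, with a median log2 difference of 0.62 against -0.02 over all probe sets. CTA1, the catalase gene of peroxisomes and mitochondria, read 121.2, 94.9 and 103.4 in the control and 6141.1, 5468.3 and 5002.9 in half-dried cells. It rose by 5.77 ± 0.09 (adjusted p = 2.36e-19) where CTT1 differed by 0.58, and at 360 min it was still called higher than the control, by 4.92 ± 0.09. GPX1, a glutathione peroxidase gene, rose by 2.35 ± 0.14 (adjusted p = 2.18e-11), and PRX1, for the mitochondrial peroxiredoxin, by 1.69 ± 0.08 (adjusted p = 1.91e-12). GPX2, of the same family as GPX1, went from control signals of 147.9, 178.4 and 160.4 to 18.2, 19.3 and 20.8 and was called lower (adjusted p = 2.56e-09). These low signals are within the range of the deleted LEU2, so no fold is given.

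In dry cells 4 of these 9 were called higher and 1 lower, with a median of 0.60 against 0.01. From dry to 360 min 0 were called higher and 1 lower, with a median of -0.78 against 0.00, and the gene called lower was PRX1 (-1.33 ± 0.08, adjusted p = 2.02e-10), whose call ended at -0.97 when arrays were centred on their medians. At 360 min against the control 2 were higher and 3 lower. Median-centred arrays gave 3 higher and 2 lower in dry cells, 1 and 0 from dry to 360 min, and 2 and 1 at 360 min against the control, where the deposited scale gave 1 and 2. Among those lower at 360 min was DOT5, for the nuclear peroxiredoxin, which fell by 1.84 ± 0.16 (adjusted p = 6.9e-09). Of all probe sets, 35.1% were called in dry cells, 23.3% from dry to 360 min and 41.2% at 360 min against the control.

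The thioredoxin and glutathione genes, some of which serve to supply electrons to peroxidases, moved both ways. Of 13 measured, 2 rose and 3 fell in half-dried cells, 5 of 13 against 27.0% of all probe sets, with a median of -0.35 against -0.02. TRR2 and TRX3, for the mitochondrial thioredoxin reductase and thioredoxin, rose by 2.68 ± 0.18 (adjusted p = 2.47e-10) and 1.75 ± 0.11 (adjusted p = 1.23e-10). TRR1, for the cytosolic thioredoxin reductase, fell by 2.77 ± 0.09 (adjusted p = 6.14e-15), from 2454.4, 2378.4 and 2458.8 to 364.2, 380.4 and 334.3. GSH2, for glutathione synthetase, fell by 2.11 ± 0.10 (adjusted p = 2.01e-12).

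In dry cells 2 of the 13 were higher and 4 lower, with a median of -0.16 against 0.01. From dry to 360 min 0 were higher and 4 lower, with a median of -0.42 against 0.00. TRX3 fell by 1.81 ± 0.11, TRX1, a cytosolic thioredoxin gene, by 1.51 ± 0.13, and GRX2, a glutaredoxin gene, by 2.10 ± 0.10. At 360 min against the control 1 was higher and 6 lower, with a median of -0.82 against 0.00. The last count was 0 and 7 on the deposited scale and 2 and 6 with centred arrays, which gave 1 higher and 3 lower from dry to 360 min. TRX1 read 2333.1, 3602.5 and 3134.3 in the control and 404.7, 381.2 and 409 at 360 min, and it fell by 2.58 ± 0.13 (adjusted p = 2.33e-12). Calls over all probe sets were 35.1% in dry cells, 23.3% from dry to 360 min and 41.2% at 360 min against the control.

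Around CCS1 and SOD1, genes of copper and manganese supply were measured for 11 of 13, since CUP1-1 and CUP1-2 share a probe set. In half-dried cells 1 rose and 2 fell, with a median of 0.13 against -0.02. CRS5, a metallothionein gene, rose by 4.37 ± 0.12 (adjusted p = 4.37e-16), from 232.4, 276.1 and 254.5 to 5851.5, 4435.2 and 4483, and at 360 min it was still called higher than the control, by 4.05 ± 0.12. COX17, for the copper chaperone of cytochrome oxidase, fell by 1.29 ± 0.25 (adjusted p = 0.000227), and by 0.99 without the second control array, which was no longer a call. In dry cells 1 was higher and 2 lower, with a median of -0.44 against 0.01. CTR1, for the main copper importer of the plasma membrane, read 345.7, 267.1 and 314.2 in the control, 472, 504.2 and 484.4 in half-dried cells and 39.8, 57.1 and 62.3 in dry cells. It was called lower in dry cells (adjusted p = 2.47e-09), at signals within the range of the deleted LEU2, so that no fold is given. Between the dry state and 360 min 1 was higher and 0 lower, or 0 and 1 on the deposited scale, which also gave 1 and 1 in dry cells. At 360 min against the control 1 was higher and 2 lower, with a median of -0.51 against 0.00. In half-dried and dry cells 27.0% and 35.1% of all probe sets were called. The share was 23.3% from dry to 360 min and 41.2% at 360 min against the control.

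The genes of Ccp1's electron donor, cytochrome c, were lower in dry cells, where CYC1 fell by 2.81 and CYC7 fell by 1.75. Of 6 genes for cytochrome c and for the maturation of Ccp1, 0 rose and 2 fell in half-dried cells, with a median of -0.35 against -0.02. CYC1, the main cytochrome c gene, read 1293.4, 939.4 and 1144.4 in the control and 118, 117 and 121.8 in half-dried cells, and it fell by 3.14 ± 0.15 (adjusted p = 1.94e-12). CYC7, the other cytochrome c gene, fell by 1.80 ± 0.22 (adjusted p = 7.96e-07). At 360 min it was called lower than the control (adjusted p = 5.03e-12), at signals of 15.4, 33.7 and 57.1 against 969.6, 678.6 and 998.9, and no fold is given for signals within the range of the deleted LEU2. In dry cells 1 was higher and 2 lower, with a median of -0.05 against 0.01. The higher one was AFG3, for a subunit of the inner membrane protease that takes part in the processing of Ccp1, at 1.49 ± 0.09 (adjusted p = 1.78e-11), and at 0.93 and not called when arrays were centred. After 360 min against dry 0 were higher and 1 lower, and at 360 min against the control 0 were higher and 2 lower. All probe sets were called at 27.0% in half-dried cells and 35.1% in dry cells. Their share was 23.3% from dry to 360 min and 41.2% at 360 min against the control.

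Of 5 other genes listed around superoxide and nitric oxide (AIM14, POS5, SFA1, SSU1 and ZWF1), 2 rose and 0 fell in half-dried cells. The median was 0.66 against -0.02. Those that rose were a kinase and an exporter gene, so the count does not speak for superoxide or nitric oxide removal. POS5, for the mitochondrial NADH kinase, rose by 1.26 ± 0.11 (adjusted p = 5.84e-09), and from dry to 360 min it fell by 1.90 ± 0.11 (adjusted p = 5.99e-11). SSU1, for a sulfite exporter of the plasma membrane, rose by 1.18 ± 0.10 (adjusted p = 6.16e-09), but its 0.92 on the deposited scale and 0.73 when centred were no calls. In dry cells 0 of the 5 were called by limma, with 4 at an adjusted p under 0.05, where 64.4% of all probe sets passed it. At 360 min 0 were higher and 1 lower than in dry cells, or 0 and 3 on the deposited scale. Against the control 0 were higher and 1 lower, where centring gave 1 and 1. The shares of all probe sets called were 27.0% in half-dried and 35.1% in dry cells. They were 23.3% from dry to 360 min and 41.2% at 360 min against the control.

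**Figure D5:**
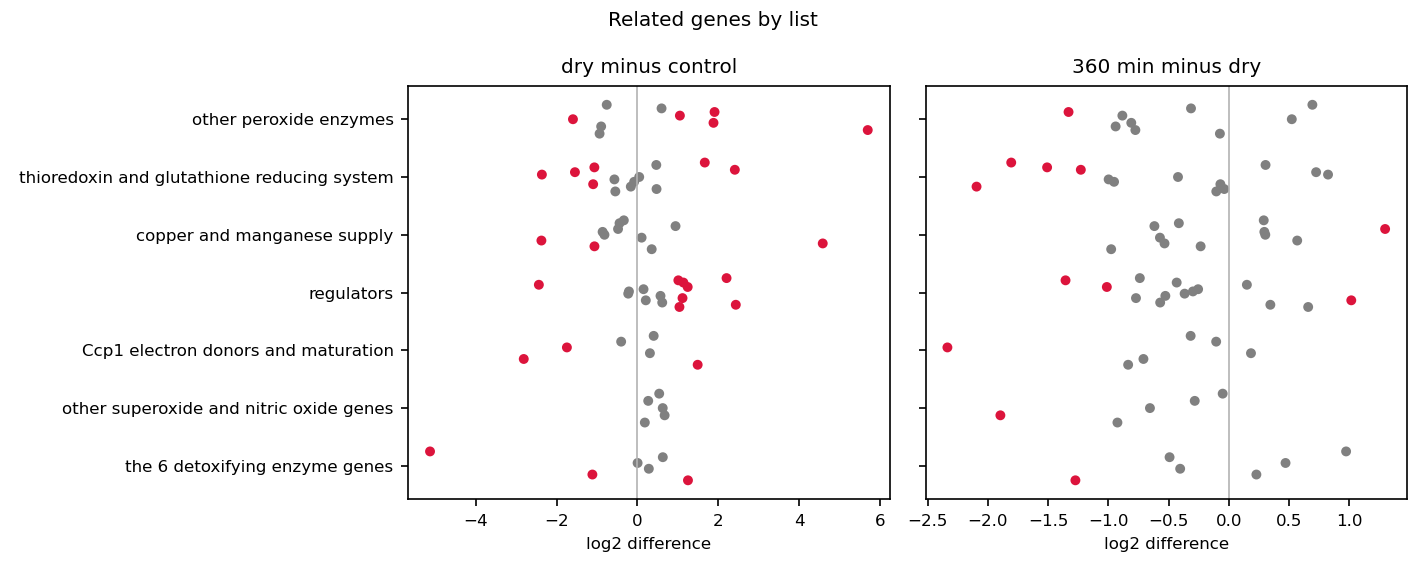
Log2 differences of the genes of each list, 1 point per gene, in the comparisons named above the panels; red points are called. CTA1 at 5.70 and CRS5 at 4.59 stand far to the right in dry cells against the control. YHB1 at -5.13 and CYC1 at -2.81 stand far to the left there.

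Likeness of pattern was measured by Pearson's correlation of log2 normalized values over the 21 arrays among 5205 genes, as a description of arrays that share their runs. CCP1 was most like GSM1 (r = 0.976), PLB2 (0.972) and SFL1 (0.967). The same genes correlated with it at 0.968, 0.972 and 0.956 over the 18 arrays without the control. SOD2 was most like AIM19 (0.885), YPT35 (0.883) and PSP1 (0.877), and CTT1 like STE6 (0.826), ECL1 (0.799) and SOF1 (0.794). SOD1 had the weakest best matches, ABZ1 (0.783), PAU23 (0.77) and CST9 (0.754). CCS1 was most like DPS1 (0.963), COQ1 (0.962) and PHO90 (0.961), which became 0.796, 0.806 and 0.813 without the control. YHB1 was most like SND3, FKS1 and PPN2, each at 0.987, which became 0.778, 0.871 and 0.79 without the control arrays. The likeness for CCS1 and YHB1 thus leaned on the control against all other groups. Among the 6 genes themselves, the strongest correlations were those of YHB1 with CCS1 (0.876) and CCP1 (-0.708) and of CCS1 with CCP1 (-0.626). YHB1 and CCS1 were both highest in the control, and these correlations were not recomputed without the control arrays. CTT1 and SOD2 correlated at 0.537, and SOD1 and CCS1 at -0.239.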

How the data were processed

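Probe-set intensities on a linear scale, from Affymetrix yeast arrays, were used as deposited by the authors. Per the labels' protocols, the authors used GeneChip Expression Analysis Software, with a Wilcoxon signed rank test and a mixed model; its version, scaling and genome build are not given in the sources used here. Of 9335 probe sets, 60 controls were left out. From the platform annotation, 6504 of the 9275 tested named 1 gene, 328 several and 2443 none.

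Arrays were quantile normalized, 17.74 was added, and log2 values were fitted in limma 3.58.1 (R 4.3.3) as group means over 21 arrays, with a variance trend. A gene was read by its brightest probe set. There were 10 comparisons and 1 F test. The steps were tested on simulated data. The genes and lists were chosen with earlier results of these data known. Named were all 6 genes, the 3 most correlated with each, and up to 4 called genes with the largest change per list in 4 comparisons. Alternatives covered the added value, scaling, filter, fold minimum, variance trend, arrays in the fit, replicate and run blocks, omitted arrays and the probe set rule. The number of arrays limits the precision.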

Additional observations from a re-analysis of the deposited data

How the results depend on the processing

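Over 1038 recomputed differences of the 6 genes, 971 kept their sign and their side of the threshold, 33 newly passed, 2 no longer passed and 32 turned sign. Of these 32, 29 had an adjusted p of at least 0.0708 under the alternative and no adjusted p under 0.05 before it. The other 3 were SOD1 from 90 to 360 min, at 0.48 on the deposited scale and 0.70 with median-centred arrays, and CCS1 from dry to 360 min, at -0.21 on the deposited scale. The 2 lost were CCP1 in dry cells against the control and CCP1 from dry to 360 min, both with median-centred arrays. With the deposited scaling the genes called were 1 from 90 to 360 min, 2 from dry to 360 min and 2 at 360 min against the control, and with median-centred arrays 3 in the last. With 1% of the median added, 2 were called from dry to 360 min, where YHB1 reached 1.07. Without the fold minimum the counts were 6 for half-dried against control, 3 for dry against half-dried and 4 for 90 min against dry. They were 2 for 360 against 90 min, 6 for 360 min against dry and 3 for 360 min against the control. The adjusted p alone was passed by 57.4% of all probe sets for half-dried against control. It was passed by 29.2% for 90 min against dry and by 40.4% for 360 against 90 min. The share is not given for the other comparisons listed, so their counts cannot be set against it. Leaving out 1 array at a time gave 1 to 2 called from dry to 360 min and 0 to 1 from 90 to 360 min. The F test was passed by 6 of 6 under every alternative run.

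YHB1 from control to half-dried cells ranged from -5.59 to -3.81 over its alternatives, the smallest with all 4 probe sets averaged, and was -5.02 without the dark one, a choice made after seeing the data. Of 63 same-numbered pairs of arrays, 5 correlated above 0.1 in their deviations from the group means (median -0.01, range -0.245 to 0.244). Differently numbered pairs were not set beside them, so this cannot tell whether a number marks a shared culture. With the replicate number as a block the count of the 6 genes called was the same in all 10 comparisons (1 for half-dried and 3 for dry against control), while the calls over all probe sets from 15 to 45 min went from 7 to 4. Of 1105 recomputed differences of the listed genes, 1074 kept their call, 31 lost it and 0 turned direction. The causes were not tested. A block for the hybridization run could not be fitted for comparisons with the control, 90 min or 360 min groups. The 360 min arrays had the lowest medians and replicate correlations.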

Other observations

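The regulators of these enzymes moved in both directions. Of 14 measured, 2 rose and 1 fell in half-dried cells, with a median log2 difference of 0.55 against -0.02 over all probe sets, where 27.0% of all probe sets were called. In dry cells 7 rose and 1 fell, or 4 and 1 with median-centred arrays, with a median of 0.81 against 0.01 and 35.1% of all probe sets called. YAP1, for the activator of the peroxide response, rose by 1.23 ± 0.11 in half-dried cells (adjusted p = 2.06e-08) and by 2.21 ± 0.11 in dry cells (adjusted p = 2.94e-12). MSN4, for one of the paired activators of CTT1, fell by 2.44 ± 0.16 in dry cells (adjusted p = 1.14e-10), while MSN2, for the other, rose by 1.24 ± 0.08 (adjusted p = 5.39e-11) and stood at 0.99, not called, with median-centred arrays. HAP4, for the activator subunit of a complex that drives respiratory genes, rose by 1.61 ± 0.12 in half-dried cells (adjusted p = 9.05e-10).

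CUP2, for the copper-sensing activator of metallothionein and SOD1 genes, read 306.5, 319.4 and 276.8 in the control and 1792.4, 1766.2 and 1675.4 in dry cells. It rose by 2.44 ± 0.11 in dry cells (adjusted p = 2.78e-13) and by 2.78 ± 0.11 at 360 min against the control (adjusted p = 6.2e-14), where SOD1 differed by 0.00 and 0.48, the latter being 0.99 on the deposited scale and 1.23 with median-centred arrays. From dry to 360 min 1 regulator rose and 2 fell, or 1 and 5 on the deposited scale and 1 and 1 with centred arrays. SKN7, for a partner of Yap1, fell by 1.36 ± 0.13 (adjusted p = 3.68e-08). HAP1, for the heme-responsive regulator, rose by 1.02 ± 0.20 (adjusted p = 0.000282), but this was 0.60 and no call when its probe sets were averaged, and the call was also lost without dry replicate 2 (0.87), dry replicate 3 (0.99) or 360 min replicate 2 (0.87) and with 50% of the median added (0.98). At 360 min against the control 4 rose and 1 fell, among them CAD1, for a relative of Yap1, by 1.70 ± 0.07 (adjusted p = 2.46e-13). Of all probe sets, 23.3% were called from dry to 360 min and 41.2% at 360 min against the control.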
